A study of Homo sapiens with 3 samples.

Results

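Long double-stranded RNA (dsRNA) regions are stretches of the human genome where RNA that survived digestion with the nuclease T1 covered 300 bp or more in both dsRNA libraries of the series. They were chosen by their widths in the deposited lists: the wild-type and knockdown lists were paired by row number, and rows whose stop minus start reached 300 in each were kept. This gave 2292 of 271645 regions, or 0.844%. The cells were HEK 293, a human embryonic kidney line, with 1 library for each of 3 groups: chromatin immunoprecipitation of DICER with an antibody to Dicer in wild-type cells, dsRNA from wild-type cells, and dsRNA from Dicer knockdown cells. How the knockdown was made is not given in the labels, all groups come from this single line, and no value for DICER1 itself entered the comparison. Both dsRNA workbooks are identical copies, so which sheet is which was taken from the sheet names alone, normal as wild type and induced as knockdown; with the opposite reading every direction below would turn around. Since no group has a second library, there is no replicate error, a ratio speaks of the pair of libraries alone, and no test was made.

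T1 is a nuclease that cuts RNA after unpaired guanosines, so stretches held in base pairs tend to survive it. DICER is the ribonuclease that cuts long dsRNA and microRNA hairpins into short RNAs. Long dsRNA is also what the sensors of innate immunity, among them the kinase PKR (EIF2AK2) and the helicase MDA5 (IFIH1), are known to bind. Each region carries a summit, the whole-number height of its read coverage, and how many reads each library had is unknown. The positions are in the hg19 build. They are printed as deposited, from the wild-type list for a single region and from both lists joined for a run of regions. Gene names were given without an hg19 annotation: small RNA and histone genes by matching the order and spacing of RefSeq genes to that of the regions, and XIST, NEAT1, MALAT1 and the other genes named below by general knowledge of hg19. Whether a region is exonic or intronic is therefore not given.

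The microRNA hairpins of the MIR17HG transcript are shown because a pair of adjoining long regions at this locus had ratios on opposite sides of 0 under the main scaling. All 6 hairpins of the cluster matched the RefSeq table. They are printed from GRCh38.p14, 5′ to 3′, with the mature microRNA arms in capitals.
MIR17 (chr13:91350605-91350688, plus strand): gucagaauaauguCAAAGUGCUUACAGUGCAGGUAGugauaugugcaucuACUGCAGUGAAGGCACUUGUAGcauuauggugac
MIR18A (chr13:91350751-91350821, plus strand): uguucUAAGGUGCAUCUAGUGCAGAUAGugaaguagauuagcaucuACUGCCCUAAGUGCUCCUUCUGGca
MIR19A (chr13:91350891-91350972, plus strand): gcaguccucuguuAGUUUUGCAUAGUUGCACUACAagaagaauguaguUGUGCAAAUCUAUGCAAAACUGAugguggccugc
MIR20A (chr13:91351065-91351135, plus strand): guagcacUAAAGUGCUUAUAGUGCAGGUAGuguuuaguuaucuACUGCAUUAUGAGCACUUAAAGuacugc
MIR19B1 (chr13:91351192-91351278, plus strand): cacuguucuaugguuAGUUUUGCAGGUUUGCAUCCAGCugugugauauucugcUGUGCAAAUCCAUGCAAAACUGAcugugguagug
MIR92A1 (chr13:91351314-91351391, plus strand): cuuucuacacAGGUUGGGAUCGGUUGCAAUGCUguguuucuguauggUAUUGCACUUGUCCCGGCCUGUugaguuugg

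The promoters of XIST, of MALAT1 at the downstream of its pair of RefSeq starts, and of the histone gene H1-3 are shown because the first 2 belong to transcripts whose long regions were lower together in the knockdown library and H1-3 had the highest ratio of the histone genes named on chromosome 6. All 3 were chosen after these values were seen, and NEAT1 is named only. Each runs from 250 bases before the start to 50 after it, from RefSeq on GRCh38.p14, 5′ to 3′. Capitals mark every TATAAA and CCAAT on either strand. XIST had neither, MALAT1 had TATAAA beginning 30 bases before the start, and H1-3 had TATAAA at 30 and CCAAT at 55 bases before it. Of 35116 promoters of this length in the table, 11.5% held TATAAA and 34.6% held CCAAT. A match describes these letters only.
XIST promoter (chrX:73852665-73852964, minus strand): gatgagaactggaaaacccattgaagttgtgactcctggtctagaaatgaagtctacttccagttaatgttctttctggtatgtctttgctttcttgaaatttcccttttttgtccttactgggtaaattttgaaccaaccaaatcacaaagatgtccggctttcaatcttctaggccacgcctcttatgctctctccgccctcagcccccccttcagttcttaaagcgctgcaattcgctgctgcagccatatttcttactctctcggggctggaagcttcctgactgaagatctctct
MALAT1 promoter, downstream start (chr11:65498795-65499094, plus strand): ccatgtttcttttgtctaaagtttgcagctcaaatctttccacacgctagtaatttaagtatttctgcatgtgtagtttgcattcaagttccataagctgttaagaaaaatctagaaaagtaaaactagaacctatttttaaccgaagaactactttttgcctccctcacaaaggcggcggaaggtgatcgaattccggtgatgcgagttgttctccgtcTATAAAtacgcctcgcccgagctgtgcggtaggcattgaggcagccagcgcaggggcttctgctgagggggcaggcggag
H1-3 promoter (chr6:26234938-26235237, minus strand): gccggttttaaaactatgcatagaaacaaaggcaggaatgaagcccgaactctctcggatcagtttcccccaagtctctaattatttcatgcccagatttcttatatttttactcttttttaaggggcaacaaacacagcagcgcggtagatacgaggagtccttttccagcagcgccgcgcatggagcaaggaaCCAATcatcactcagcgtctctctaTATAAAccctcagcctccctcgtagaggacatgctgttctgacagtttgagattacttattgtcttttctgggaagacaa

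Long regions were few but tall. Their median summit was 39 in the wild-type library and 27 in the knockdown library, against 3 and 2 for the 269353 shorter regions. The middle 50% ran from 17 to 142 in wild type and from 11 to 107 in knockdown, and the highest summits were 1932936 and 1887166. Long regions made up 4.62% of the bases covered in wild type and 5.02% in knockdown, and held 14.4% and 13.2% of the summed height. Their share of all regions grew with level, from 0.233% of regions with a mean summit of 3 to below 10 up to 16.2% of those at 10000 or more. Width and level are therefore tied in these lists. Classes of similar mean summit are used below where stated, and the other comparisons with shorter regions are not matched on level.

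Most long regions were just past the threshold. The median width was 402 bp in wild type and 389.5 bp in knockdown, 1305 of the 2292 were under 400 bp in the narrower library, and 46 reached 1000 bp in both. The edges agreed closely between the libraries: the starts differed by a median of 10 bp and so did the stops, and 42 regions had both ends equal. More were wider in wild type (1296) than in knockdown (925), with 71 of equal width. Requiring the width in both libraries also left out 926 regions that were long in wild type alone, whose median log2 ratio was -0.92 over 513 with a combined summit of 20 or more, and 319 that were long in knockdown alone, with -0.36 over 206. The ratios of the long regions are conditional on this choice.

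Of the 10 tallest long regions, 8 had scaled summits within 1.39-fold of each other, and those with names were at small nuclear and nucleolar RNA genes, RN7SK or nuclear copies of mitochondrial sequence. The highest, at chr11:62608620-62609303, holds RNU2-2, a U2 small nuclear RNA gene of the spliceosome, and had summits of 1932936 (wild type) and 1887166 (knockdown). RN7SK, the RNA that holds the elongation factor P-TEFb inactive, followed at chr6:52860393-52860753 with 1651471 and 1601602. Both were within 0.11 of 0 on the log2 scale after scaling. RNU1-1, a U1 small nuclear RNA gene, stood apart with 133171 against 344248, so that the knockdown value was 2.48-fold higher. RMRP, the RNA of the ribonuclease MRP, went the other way with 89226 and 64158 (1.45-fold lower), and RPPH1, the RNA of ribonuclease P, had 49300 and 69913 (1.36-fold higher). Over the 7 regions of this kind that were named the median log2 ratio was -0.11, with 2 higher and 5 lower, but 0.15 and 0.38 under the scalings to the median ratio and to reduced sums described below, so no direction is given for them together. U1 and U2 genes have near-identical copies, with the placing of reads that match several sites not given in the sources used here, so the split of reads among copies is uncertain.

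**Figure D1:**
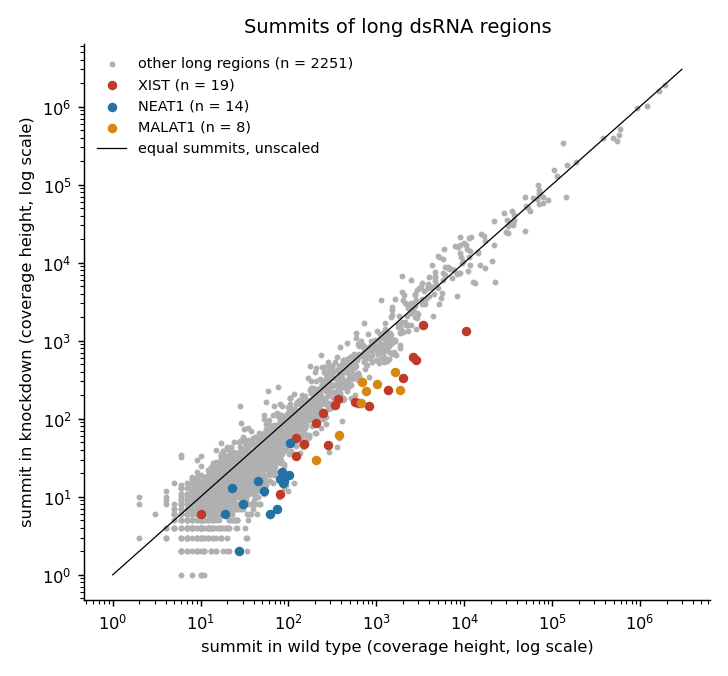
Summits of the 2292 long regions in wild type (x axis) and knockdown (y axis), both as coverage height on log scales, with 1 point per region. The line marks equal unscaled summits. The regions of XIST (19), NEAT1 (14) and MALAT1 (8) all lie below it, while the tallest regions lie near it.

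For the ratio, each knockdown summit was multiplied by 0.958, the ratio of the summed summits of both libraries, 1 was added to each summit and the log2 of knockdown over wild type was taken. Ratios of low regions are understated on this scale. Of the 2292 long regions, 2029 had a combined summit of 20 or more and were counted. Their median was -0.48 (95% interval over regions -0.51 to -0.43), or 0.719 of the wild-type level, with 470 higher and 1559 lower. In the knockdown library 39 were higher by 2-fold or more (1.92%), where 5.07% of all 35876 counted regions and 5.26% of the shorter ones were, and 482 were lower by 2-fold or more (23.8%), where 30.8% of all regions and 31.2% of the shorter ones were. The widths come from the same libraries as these ratios, so nothing is read from the gap between these shares. The shift below 0 depended on the scaling: the median was -0.42 with unscaled summits, -0.23 when scaled to the median ratio of all regions and -0.01 when scaled to sums without the highest 1% of regions, which moves a ratio by up to 0.49 (reduced sums from here on).

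At similar level, long and shorter regions differed little at low summits and more in the middle of the range. At a mean summit of 3 to below 10 the medians were -0.71 for long and -0.78 for shorter regions. At 30 to below 100 they were -0.52 and -0.40, at 100 to below 300 they were -0.43 and -0.23, and at 1000 to below 3000 they were -0.36 over 80 long regions and 0.05 over 514 shorter ones. In that class 16.3% of long regions were lower by 2-fold or more, against 2.53% of shorter ones. Regions of XIST and MALAT1 are among these 16.3%. Without XIST, NEAT1 and MALAT1 the long median in this class was -0.31 over 74 regions, and the shorter one stayed at 0.05. At 10000 or more both medians were -0.02. Averaged over classes by the number of long regions, long regions were 0.05 lower than shorter ones on the log2 scale. The regions of 1000 bp or more had a median of -0.66, with 41 of 46 lower and 19 lower by 2-fold or more, and 9 of the 46 were at XIST or MALAT1. Under reduced sums their median was -0.19, with 24 lower and 22 higher. By the main scaling, those of 300 to below 400, 400 to below 500 and 500 to below 1000 bp had -0.49, -0.42 and -0.50.

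**Figure D2:**
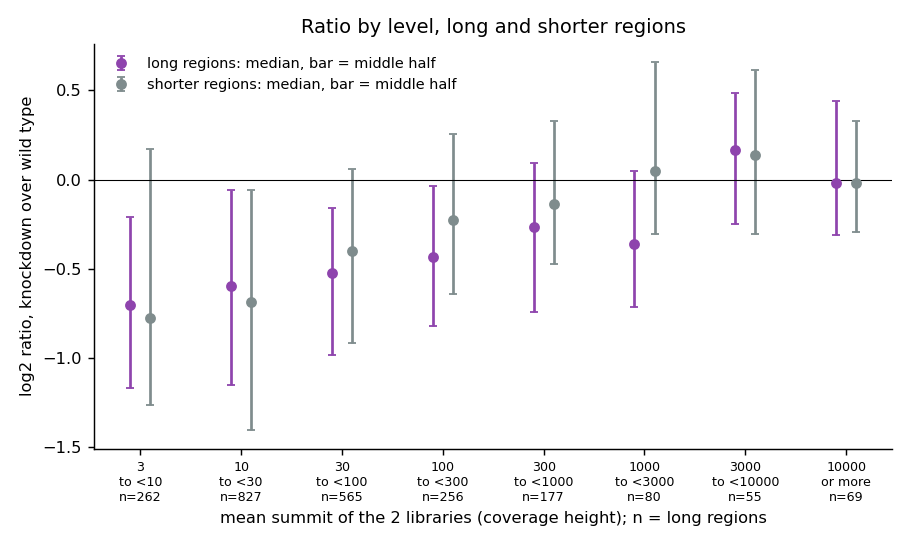
Median log2 ratio of knockdown over wild type (y axis) in classes of mean summit (x axis, coverage height), for long and shorter regions, where bars span the middle 50% of regions. The class below 3, with 1 long region, is left out. The medians lie furthest apart at 1000 to below 3000, at -0.36 for long and 0.05 for shorter regions.

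Long regions of 3 nuclear long noncoding RNAs were lower in the knockdown library along their whole runs. XIST is the RNA that coats and silences an X chromosome, NEAT1 is the architectural RNA of paraspeckles, and MALAT1 is an abundant RNA of nuclear speckles. They held 41 long regions, of which 40 had a combined summit of 20 or more. All 40 had lower summits in the knockdown library, 39 of them by 2-fold or more, with a median log2 ratio of -2.08, or 0.237 of the wild-type level. All 40 were also lower under each of the other scalings, and 31 by 2-fold or more when sums left out the highest 1% of regions. The runs were picked out with these values known, and what set the lower level was not tested. Fewer molecules and less pairing within each molecule cannot be told apart here.

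XIST formed the longest run, 19 long regions from chrX:73040499-73072564. They span 32065 bp, beside a RefSeq gene length of 32059 bp, and cover 69.5% of that span. The tallest, at chrX:73045633-73047949, went from 10464 in the wild-type library to 1339 in the knockdown library, an 8.15-fold lower value. The widest in wild type, at chrX:73041414-73044635, had 3433 and 1585 (2.26-fold lower), and the last, at chrX:73070593-73072564, had 2831 and 559 (5.28-fold lower). All 18 counted regions were lower by 2-fold or more, and the least of these differences was 2.14-fold, at chrX:73058880-73059201 (364 and 177). The remaining region, chrX:73050207-73050589, was below the minimum with 10 and 6. The median log2 ratio was -1.99. Among the 18 counted shorter regions of the locus 14 were lower by 2-fold or more and 3 were higher, with a median of -1.32.

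Values given as a pair, here and below, are the wild-type and then the knockdown summit. NEAT1 held 14 long regions over 22207 bp (RefSeq gene length 22743 bp), but they covered 31.1% of it and were low. Wild-type summits ran from 19 to 104 and knockdown summits from 2 to 49. The tallest, at chr11:65199500-65199808, had a wild-type summit of 104 and a knockdown summit of 49 (2.19-fold lower), and the next, at chr11:65198409-65198802, had 102 and 19 (5.37-fold lower). Of the 14, 13 were lower by 2-fold or more, with a median of -2.17. The exception, chr11:65191762-65192139, had 23 and 13 (1.78-fold lower). The 36 counted shorter regions of NEAT1 had a median of -2.33, and 35 were lower by 2-fold or more.

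MALAT1 was covered almost without gaps: 8 long regions made up 96.8% of the 6892 bp from chr11:65266680-65273572. The tallest, at chr11:65268560-65269929, stood at 1855 in the wild-type list and at 235 in the knockdown list (8.21-fold lower). The last and widest, at chr11:65271518-65273570, had 681 and 293 (2.42-fold lower), the smallest difference of the 8. All 8 were lower by 2-fold or more, with a median of -2.10. The distance from the first NEAT1 region to the first MALAT1 region places the start of this run 176 bp past the downstream RefSeq start of MALAT1, whose promoter is printed above, and 1483 bp past the upstream start.

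**Figure D3:**
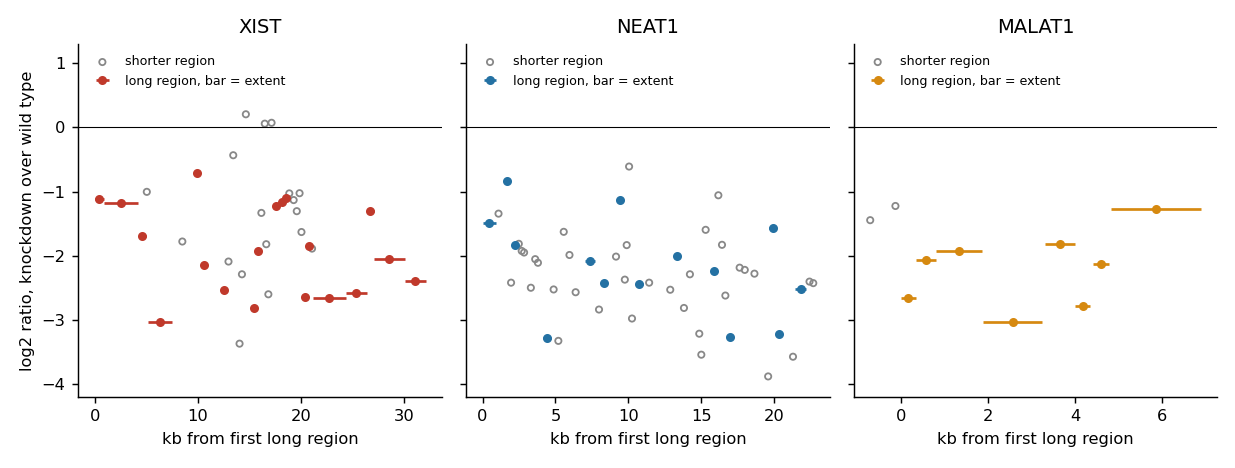
Log2 ratio of knockdown over wild type (y axis) along XIST, NEAT1 and MALAT1, by distance in kb from the first long region in genome order (x axis). Filled points are long regions with a bar for their extent, open points are shorter regions that passed the same minimum. All long regions lie below 0, and 3 shorter regions of XIST lie above it.

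The 3 other members of the long noncoding RNA list that were placed with a long region showed no such run of lower values. GAS5, SNHG1 and SNHG12 are host transcripts of small nucleolar RNAs (snoRNAs). At GAS5 the long regions had 71289 and 72716 at chr1:173833262-173834587 and 8425 and 15713 at chr1:173835749-173836095, near equal and 1.79-fold higher. SNHG12 had 3 long regions with a median of 0.08. At SNHG1, 2 regions were higher, such as 4666 and 7618 at chr11:62622632-62623203 (1.56-fold), and chr11:62619453-62620200 was lower, with 423 and 177 (2.49-fold). With XIST, NEAT1 and MALAT1 left out, the median of all counted long regions was -0.46. Of these 1989 regions, 443 were lower by 2-fold or more (22.3%), where 30.8% of all counted regions were.

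Some protein-coding genes also carried runs of long regions that were lower in the knockdown library. They were named after these values were seen. Among all counted regions 30.8% were lower by 2-fold or more. SRRM2, a large serine- and arginine-rich protein of the splicing machinery, held 8 long regions, all lower by 2-fold or more, with a median of -2.40. Its summits were low, 25 to 90 in wild type and 4 to 25 in knockdown, where the median was 7.5. Its widest, at chr16:2815483-2817565, had summits of 69 and 19 (3.65-fold lower), and the tallest, at chr16:2813597-2814078, had 90 and 25. Both had smaller differences than the rest. The 9 shorter regions within the SRRM2 run had a median of -2.16, so the lower values there were not particular to long regions. IRS4, an insulin receptor substrate, held a pair of wide regions: 371 and 56 at chrX:107977028-107979570 (6.81-fold lower) and 202 and 66 at chrX:107975791-107977005 (3.16-fold lower). They were part of a run of 8 long regions at chrX:107963180-107979646 with a median of -1.62, and the 31 shorter regions within it had -1.13. SCD, the stearoyl-CoA desaturase, held 5, all lower by 2-fold or more, with wild-type summits of 17 to 43 and a median of -1.35. Under reduced sums all 5 were still lower, 2 of them by 2-fold or more. A run of 4 of these SCD regions also held 4 shorter regions, with a median of -0.66. In DDX17, an RNA helicase that acts in microRNA processing and splicing, the region chr22:38883845-38884301 had 357 and 43 (8.49-fold lower), while its 3 other long regions were 1.94- to 2.82-fold lower. At EIF2S3, a subunit of the translation initiation factor eIF2, a region of 34 and 2 had the lowest ratio of all counted long regions (log2 -3.59), next to others such as chrX:24095140-24095494 with 145 and 119.

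Among runs without a name, medians lay on both sides of 0. The second largest run, 15 long regions over chr1:241778140-241802869, had a median of -1.13 and low summits (median 18 and 8). The 12 regions of chr15:102292912-102305007 covered 88.6% of their span and had -0.59. The 5 of chr19:34882125-34900395 had -2.93, with 4 of them 2-fold lower or more. The 4 of chr19:49993067-50000942 had 0.28, and none of these was lower.

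RPL23A, EEF2 and RPL10, named for their runs or ratios after these were seen, held long regions that were higher in the knockdown library beside others that were lower, while all long regions counted at EIF4A2 (3), a translation initiation helicase, and at RPS2 (3), a small-subunit protein, were lower under the main scaling. Under reduced sums 2 of the EIF4A2 regions and all 3 of RPS2 were higher. The RPS2 name came from general knowledge of hg19, and spacing placed chr16:2011660-2012018 (236 and 180) at NDUFB10 instead. The other RPS2 regions overlap SNORA10 and SNORA64 by spacing and are also counted with the snoRNA regions below. RPL23A, a protein of the large ribosomal subunit, held 5 long regions. The taller 3 were higher in the knockdown library: 5049 and 12276 at chr17:27047522-27047931 (2.33-fold), 9884 and 17856 at chr17:27050575-27051372 (1.73-fold) and 4003 and 6570 at chr17:27049579-27049970 (1.57-fold). The other 2 had summits of 10 to 16 in both libraries. EEF2, the elongation factor that moves the ribosome along, was mixed: chr19:3982224-3982590 had 2451 and 5978 (2.34-fold higher), and its 5 other long regions were lower, by 1.12- to 1.96-fold, of which chr19:3976020-3976841 (608 and 567) was higher under the scalings to the median ratio and to reduced sums. RPL10, another large-subunit protein, had 1117 and 3349 at chrX:153628603-153629271 (2.87-fold higher) beside 551 and 448 at chrX:153626537-153626935. Several of these genes host snoRNAs in their introns, so which part of a gene a region covers cannot be told from these files.

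Of the 16 abundant messenger RNAs listed (actins, tubulins, heat shock proteins, glycolytic enzymes and ribosomal proteins), 14 were placed with a long region, 30 regions in all. The median was -0.24, with 5 higher and 25 lower, and it turned to 0.02 and 0.25 under the scaling to the median ratio and to reduced sums. The 30 include the 3 RPS2 regions, of which spacing placed chr16:2011660-2012018 at NDUFB10. ACTG1, cytoplasmic gamma-actin, held both of the regions lower by 2-fold or more: 1499 and 672 at chr17:79477035-79478205 (2.33-fold) and 642 and 313 at chr17:79478208-79479220 (2.14-fold). Under reduced sums neither reached 2-fold, and their median was -0.67. The 3 long regions of ACTB, beta-actin, had a median of -0.20, which was 0.29 under reduced sums, and the tallest had 197 and 176 at chr7:5567839-5568349. At GAPDH, a glycolytic enzyme, chr12:6646738-6647167 had 1221 and 727 (1.75-fold lower) and the other 2 were within 1.18-fold.

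The replication-dependent histone genes are typically short and without introns, and their transcripts typically end in a stem-loop in place of a poly(A) tail. The 34 long regions named at these genes had a median width of 473 bp in wild type and 475.5 bp in knockdown. Their median log2 ratio was -0.06, but it was 0.0058, 0.20 and 0.43 under the other scalings, so no direction is given. The families were spread: the median was 0.64 for 6 H3 regions, 0.43 for 7 H4 regions, -0.12 for 9 H2A regions and -0.45 for 10 H2B regions, but H2A was 0.14 under the scaling to the median ratio, and H2A and H2B were 0.37 and 0.04 under reduced sums. The highest were H1-3 at chr6:26234806-26235194 with 29 and 89 (2.87-fold), H3C4 at chr6:26197013-26197506 with 56 and 163 (2.76-fold) and H2AC12 at chr6:27114882-27115344 with 235 and 656 (2.67-fold). The single region lower by 2-fold was at H2BC12, chr6:27106071-27106460, with 81 and 41 (2.04-fold). Spacing also placed chr6:27114137-27114647 (1298 and 895, 1.51-fold lower) at H2BC12. The RefSeq gene matched there spans both regions and is not short. Histone genes of a family are near-identical, so reads may be split among them.

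The tRNA genes, transcribed by RNA polymerase III, were mostly higher. Of 20 long regions at tRNA genes, 18 were higher, with a median of 0.53 that grew to 1.02 under reduced sums. Higher by 2-fold or more were 3 (15.0%), above the 5.07% of all counted regions and the 1.92% of counted long regions. At a mean summit of 1000 to below 3000 this share was 12.6% of shorter and 2.5% of long regions. The tRNA regions are not matched to that class, since their wild-type summits ran from 104 to 149287. A long region here is wider than a tRNA, with a median width of 336.5 bp in wild type. The tallest, at TRC-GCA14-1 (chr17:37017675-37018042), had 149287 and 176406 (1.13-fold higher), and the highest ratio was at TRC-GCA17-1 (chr7:149388024-149388362), with 727 and 1691 (2.23-fold). Both are cysteine tRNA genes. Only TRI-AAT2-1 (729 and 611) and TRH-GTG1-5 (11351 and 11643) were not above 0 after scaling. The 11 regions at snoRNA genes placed by spacing had a median of 0.29, with 7 higher. Among them were SNORD118, the U8 snoRNA of ribosomal RNA processing, with 104582 and 154635 (1.42-fold higher), and SNORD18A inside RPL4, with 1947 and 4169 (2.05-fold higher). The 5 regions at U3 genes, whose RNA guides early ribosomal RNA cleavage, had 0.09. TERC, the RNA of telomerase, had 306 and 218 (1.46-fold lower).

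The 8 regions at nuclear copies of mitochondrial sequence included the longest of all, chr1:564449-570315, 5866 bp wide in wild type and 5864 bp in knockdown, with summits of 50133 and 53455. Their median was 0.01, with 4 higher and 4 lower, and under reduced sums it was 0.50, with all 8 higher. Mitochondrial RNA, which is transcribed from both strands, shares its sequence with such copies, and the source of these reads cannot be told apart here. Of the 10 longest regions, 5 were at XIST and 1 at MALAT1, and 9 of the 10 were lower in the knockdown library.

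Of the 13 listed microRNA host and DICER pathway genes, 2 were placed with a long region. Not every listed gene could be placed, so others, such as the microRNA genes MIR3648-1 and MIR3687-1, may still lie on a long region. ADAR, the enzyme that edits adenosine in dsRNA, had a single low region with 9 in each library. MIR17HG, the host of the miR-17 to miR-92a cluster whose hairpins are printed above, had a pair of regions separated by 3 bp in wild type and 2 bp in knockdown. The first, chr13:92002851-92003185, had summits of 57 and 43 (1.38-fold lower). The other, chr13:92003188-92003680, had 177 and 473 (2.55-fold higher). Together they span 852 bp and the 6 hairpins span 787 bp. If the whole cluster lies inside the pair, MIR17 and MIR18A fall in the first region, MIR20A, MIR19B1 and MIR92A1 in the other, and MIR19A across the gap. Under reduced sums the first was also above 0 (log2 ratio 0.02), while the other was higher under each scaling.

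DICER peaks fell on 15 long regions, or 0.654% (exact 95% interval 0.367 to 1.08), where 0.0423% of all 271645 regions had a peak and 0.0371% of shorter ones did. These 15 took in 14 of the 119 peaks. Level goes with this share: 10 of the 15 had a mean summit of 10000 or more. In that class 14.5% of 69 long regions had a peak (7.17 to 25.04) and 7.54% of 358 shorter ones (5.03 to 10.8), and the intervals overlap. A wider region has more bases to meet a peak, and per Mb covered in this class long regions had 231 regions with a peak and shorter ones 451. Below 3000, long regions with a peak were 3 in all.

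**Figure D4:**
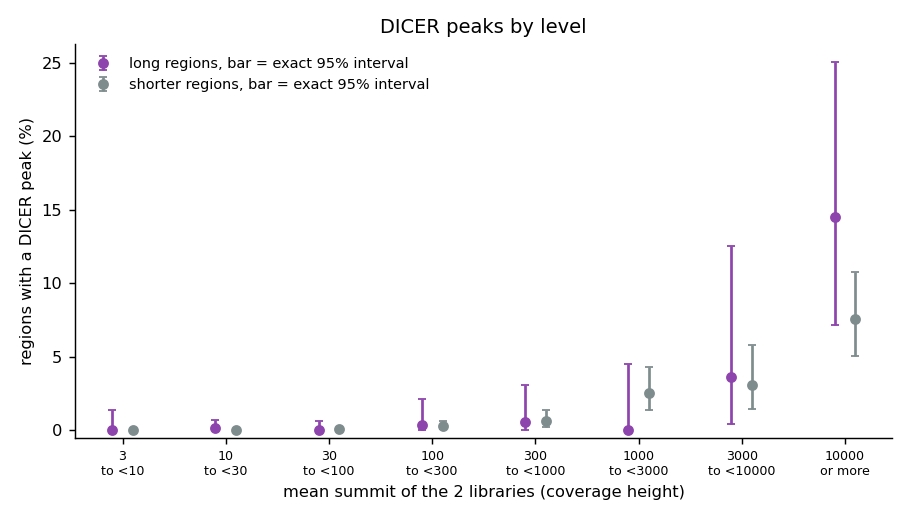
Share of regions with a DICER peak, in percent (y axis), in classes of mean summit (x axis, coverage height), for long and shorter regions, with exact 95% binomial intervals over regions. The class below 3 is left out. At 10000 or more the shares were 14.5% and 7.54%.

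The 15 regions with a DICER peak had a median log2 ratio of -0.36, with 10 lower and 5 higher. Of the 15, 4 were lower by 2-fold or more (26.7%), where 30.8% of all counted regions were. That share is not matched on level. At a mean summit of 10000 or more, which 10 of the 15 reached, it was 7.25% of long and 3.07% of shorter regions. Nothing is read from so small a count. Under reduced sums 9 of the 15 were higher. An adjoining pair shared a peak that the authors' list gives a score of 729.45: chr21:9825407-9826465 had 22634 and 5703 (4.14-fold lower), and its neighbour chr21:9826489-9827599 had 1211939 and 1020966 (1.24-fold lower). At chr2:230045458-230045793 the summits were 13242 and 5488 (2.52-fold lower), and at chrX:108297333-108297853 they were 17348 and 8451 (2.14-fold lower). The other way, chr11:85195006-85195320 had 9026 and 21389 (2.27-fold higher). RMRP and TRL-TAG2-1, a leucine tRNA gene, were the named genes among the 15. No long region of XIST, NEAT1 or MALAT1 had a peak. The authors' final set, a list of positions with no values, held 150 long regions, 15.0% of its 1003 and 6.54% of all long regions. Their median was 0.02, with 77 higher and 73 lower, and under reduced sums it was 0.52, with 128 higher and 22 lower. Their lowest summits were 1507 in wild type and 1571 in knockdown, so regions low in either library were absent and the ratios are conditional on this. The set also held 853 shorter regions, 0.317% of all shorter ones, with a median of 0.04, or 0.53 under reduced sums.

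The extremes of the ratio were mostly low regions. The 10 lowest were -3.59 to -3.03 on the log2 scale, 5 of them at XIST, NEAT1 or MALAT1, and 7 had a knockdown summit under 10. The 10 highest were 2.87- to 4.79-fold higher, and 3 had a wild-type summit under 10. The tallest of these was unnamed, at chr10:5895305-5895766, with 1962 and 6757 (3.30-fold). A region at chr1:202203678-202204182 had 28 and 144 (4.79-fold).

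Most long regions stood alone, and some formed runs. Within 10 kb of another long region were 796 of them, or 34.7% (32.8 to 36.7), within 1 kb 21.3% and within 50 bp 7.33%. Joined at 10 kb they formed 308 runs of at least 2, 14 of which held 5 or more regions, and 1496 had no long neighbour at this distance. Regions split by gaps of a few bases count as neighbours here, as at MALAT1. By chromosome, X had the highest share of its regions in the long class, 153 of 10320 or 1.48%, and chromosome 4 the lowest at 0.524%. The long regions of X had a median of -0.66, and -0.50 without XIST.

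**Figure D5:**
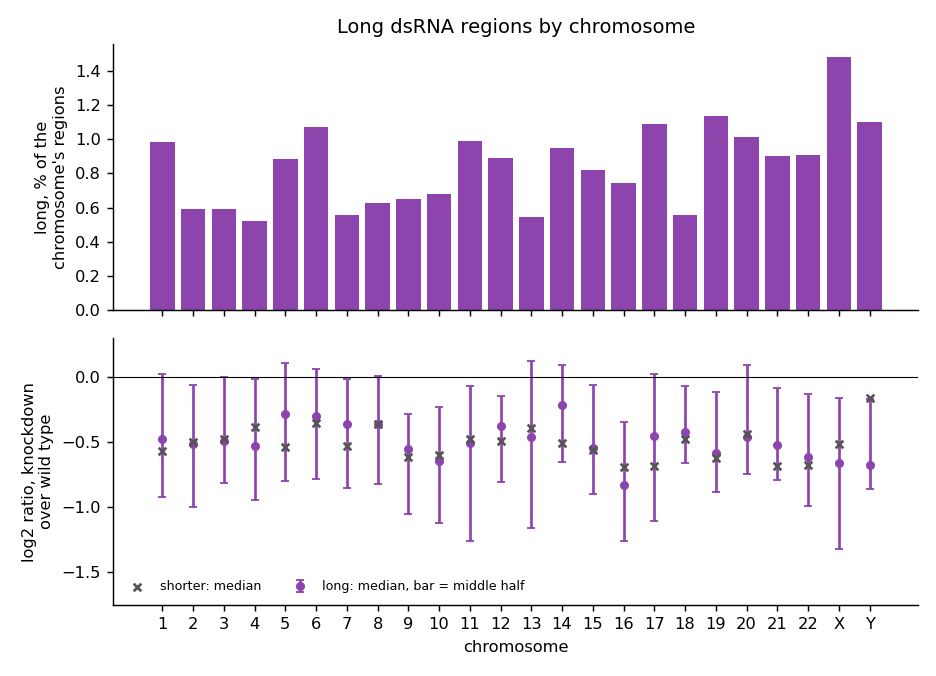
Upper panel: long regions as a percentage of each chromosome's regions (y axis). Lower panel: log2 ratio of knockdown over wild type, with the median and middle 50% of long regions and the median of shorter regions, all with a combined summit of 20 or more. X has the highest share, at 1.48%, and every chromosome's long median lies below 0 under the main scaling.

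The width threshold cut through a continuous range. The 123 whose narrower width was less than 5 bp past 300 had a median ratio of -0.57 over the 94 counted, and the 109 that missed it by at most 5 bp had -0.59 over 83. The tallest inside were tRNA regions: TRH-GTG1-5, 300 bp wide in wild type, and TRL-TAG1-1 (3820 and 5041). The tallest outside, 298 bp wide in knockdown, was chr1:161435225-161435548 with 179552 and 184521.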

How the data were processed

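Groups came from the sample labels: 3 HEK 293 libraries, 1 per group. Per the labels' protocols, dsRNA was total RNA after T1 nuclease digestion, read as 50 bp paired ends. The submitters' processing notes name bcl2fastq 1.8.4, BWA 0.7 and hg19 for dsRNA, and Bowtie 0.12.7, MACS 1.4 and hg19 for the ChIP library. The way dsRNA regions were called was not given in the sources used here. Each deposited summit is a coverage signal, a whole-number height that is not scaled by library size. Peaks carry the score that the authors deposited with them. The final set holds positions only.

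From these files, widths, log2 ratios (pseudocount 1, knockdown scaled by 0.958), overlaps of 1 bp or more and runs joined at gaps of up to 10 kb were computed with Python 3.11.15, pandas 2.3.3 and numpy 2.4.6, with scipy 1.17.1 for intervals and matplotlib 3.10.9 for plots. The statistics were checked on simulated data. Counts of higher and lower regions and ratio medians took regions whose summits added up to 20 or more, with these exceptions. Level classes, runs without a name, the run at IRS4 and the shorter regions within the SRRM2, IRS4 and SCD runs took all of their regions. Intervals of 95%, exact binomial for shares and binomial order statistics for medians, cover counting or the spread over regions, which are not replicates. Depth is unknown, since a sum of summits over paired regions is not a read total, and no test between libraries was possible with 1 library per group.

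Small RNA genes of the RefSeq table (GRCh38.p14) were matched by spacing: of 248 windows, 59 were accepted, where at least 5 genes of up to 450 bp fell within 60 bp of regions averaging a summit of at least 100 and the next best place took at most 0.5 as many. Regions within 200 kb of a matched gene took its offset, which named 98 of 100 long regions in reach. This rule was revised after its first names were seen. No coordinate was converted between builds. Long regions, gene lists and loci were chosen with earlier results of these data known. Genes other than those of the lists, the mitochondrial copies and the printed sequences were chosen after their values were seen. The rule for named regions took the 10 tallest, the 10 longest, the 10 highest and 10 lowest ratios, regions with a DICER peak, the 5 largest runs, the 3 tallest regions within 5 bp of the threshold on each side, and those at listed loci. Only some of these are printed. Of the 6 lists, long regions were placed for 6 of 11 long noncoding RNAs, 6 of 23 structured RNAs, 9 of 20 snoRNA, scaRNA and telomerase RNAs, 8 of 12 replication-dependent histones, 14 of 16 abundant mRNAs and 2 of 13 microRNA and DICER pathway genes; not every listed gene could be placed. Alternatives were other scalings, pseudocount 10, other level minimums, width thresholds, level classes, overlaps, peak scores and distances, and leaving out XIST, NEAT1 and MALAT1.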

Additional observations from a re-analysis of the deposited data

How the results depend on the processing

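No paired analysis was possible because no group had more than 1 library. Of 74 alternative values, 41 stayed within the spread or within 1.5 times the count, 30 moved and 3 reversed. The cause of each shift was not tested unless the setting itself fixes it. The median log2 ratio of long regions (-0.48) was -0.42 without scaling, -0.23 when scaled to the median ratio, -0.0055 with sums without the highest 1% of regions, -0.37 with pseudocount 10, -0.33 with a minimum combined summit of 100 and -0.53 with the width judged in wild type alone. The counts of 39 higher and 482 lower by 2-fold or more were 84 and 306 at the median ratio, 150 and 203 at reduced sums, 25 and 149 at a minimum of 100, 119 higher and 1332 lower at a width of 200, and 5 and 114 at a width of 500; the last 3 settings also change how many regions are counted. The long minus shorter difference within level classes (-0.05) was -0.15 at a minimum of 100, -0.13 at a width of 500 and -0.12 with the width judged in wild type alone. It was judged against the interval of the long median. The share with a DICER peak (0.654%) was 0.355% at a width of 200. The share within 10 kb of another long region (34.7%) was 51.2% at a width of 200, 25.5% at 500, 37.8% in wild type alone, 21.3% at 1 kb and 57.8% at 100 kb. The share in the final set (6.54%) was 3.93%, 10.6% and 5.22% at a width of 200, 500 and in wild type alone. The histone median (-0.06) reversed to 0.0058 unscaled, 0.20 at the median ratio and 0.43 at reduced sums. Leaving out XIST, NEAT1 and MALAT1, and their scalings, were chosen after seeing the data, as were the scalings for histone and tRNA genes.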
